A study of Homo sapiens with 48 samples.

Results

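The genes described here encode the DNA replication machinery: the licensing factors and the MCM helicase, GINS, the sliding clamp and its loader, the replicative polymerases and primase, FEN1 and LIG1, the single-strand binding protein RPA, and enzymes that supply deoxynucleotides. A list of 38 such genes was taken by symbol, and those with at least 1000 counts summed over all libraries were kept, which left 37 of 38 among 12535 genes that passed the same minimum. POLE2, a subunit of DNA polymerase epsilon, fell just outside with 746 counts, and MCM10 with 1824 and PRIM1 with 1843 were the lowest inside. The RNA came from IMR90, a human fetal lung fibroblast line, carrying ER:RAS G12V, an oncogenic RAS fused to an oestrogen receptor domain that 4-hydroxytamoxifen (4OHT) switches on. All 48 libraries therefore carried the fusion, so in this series an effect of 4OHT itself cannot be told apart from that of RAS. Cells received 4OHT or its solvent DMSO for 6 days, then an siRNA, and were kept for 2 days in 0.5% FBS. The siRNAs were non-targeting (siNT1 or siNT2, together siNT), against SF3B1, a branch-point recognition component of the U2 snRNP (siSF3B1-13 or siSF3B1-16), or against RBM39, a splicing factor bound by aryl sulfonamide drugs (siRBM39-06 or siRBM39-08). Each siRNA was used in 4 libraries with each treatment, which gave 6 groups of 8 libraries. DMSO cells transfected with siNT served as the control. The study's methods describe replicates of cell work as separate experiments, without saying so of these libraries in particular, and give 3 replicates for this experiment where the labels give 4, so p-values measure the spread between the labelled libraries.

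Replication origins are licensed when CDC6 and CDT1 load the MCM complex onto DNA, and the helicase becomes active once GINS and other factors join it. Polymerase alpha with primase (POLA1, POLA2, PRIM1, PRIM2) lays down primers, the RFC complexes place the PCNA clamp, polymerases delta and epsilon extend, and FEN1 and LIG1 join the fragments of the lagging strand. Many of these genes are transcribed in a burst before S phase by E2F factors, and their mRNA falls as cells leave the cycle. Oncogenic RAS drives fibroblasts into senescence, a lasting exit from the cycle.

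Libraries held 31467221 to 52734636 counts, and the replication genes made up 0.0470% to 0.0813% of them. Levels are given as CPM (counts scaled to library size, with TMM), and differences as log2 fold changes ± SE from edgeR's quasi-likelihood test on all 12535 genes. A difference was called where p, adjusted by Benjamini and Hochberg's method, was under 0.05. The targeted mRNAs checked the labels: SF3B1 ran from 305 to 383 CPM in DMSO siNT libraries and from 30.3 to 34.7 in DMSO siSF3B1 libraries, and RBM39 from 155 to 179 and from 23.8 to 29.9 after siRBM39, with no overlap. Marker lists for cell types, as sums per library without TMM, moved with the treatment. The 8 fibroblast markers summed to 51089 to 57585 CPM in DMSO siNT and 14416 to 15304 in 4OHT siNT, and to 36670 to 53493 in the other DMSO and 11313 to 16380 in the other 4OHT groups. The 4 immune markers summed to 36.5 to 47.5 CPM in DMSO siNT and 71.7 to 84.4 in 4OHT siNT, and over the knockdowns to 33.6 to 46.5 and 79.99 to 105, with CD3E at 0 in the DMSO groups and 4OHT siNT. The 4 epithelial markers in the table, of 5 listed, summed to 18.5 to 26.4 CPM in DMSO siNT and 6.69 to 9.90 in 4OHT siNT, and over the knockdowns to 13.96 to 41.8 and 6.62 to 75.9. The 2 endothelial markers of 3 listed summed to at most 7.35 CPM. The senescence genes moved with 4OHT in siNT, 6 of 8 higher and 2 lower. IL1A, an inflammatory cytokine, changed by 7.55 ± 0.21 and LMNB1, a lamin lost in senescence, by -2.41 ± 0.13. Of 10 proliferation markers 9 were lower with 4OHT in siNT, and their summed level had a median in DMSO of 115 CPM with siNT, 44.7 with siSF3B1 and 111 with siRBM39, and with 4OHT of 44.8, 23.7 and 42.8 CPM. In bulk RNA, fewer cells in S phase and less mRNA per cell cannot be told apart, and the part of the proliferation and cell type markers in the results that follow was not tested. The library 4OHT siRBM39-08 replicate 4 stood apart from the other libraries of its siRNA and treatment, with a correlation of 0.951 to their median. Its epithelial markers summed to 75.9 CPM against 6.62 to 12.8 in the other 7 libraries of its group. Calls and fold changes that use it are given with and without it, while levels, PSI and counts of groups that do not overlap include it. The 4 DMSO siRBM39-06 libraries came next, with correlations of 0.9885 to 0.9950, against at least 0.996 in the rest. These 4 were kept in every result. The highest epithelial sum of the DMSO groups, 41.8 CPM, was in DMSO siRBM39.

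Per transcript length (cRPKM, the authors' length- and mappability-corrected value), PCNA was the most abundant member in DMSO siNT, with a mean of 48.5 and a range of 46.99 to 50.6 over 8 libraries. POLD2, a subunit of polymerase delta, followed with 28.99, and TYMS, which makes thymidylate, with 24.5, and none of these 3 ranges overlapped. The MCM ring subunits lay lower and unequal, from 15.4 for MCM7 to 4.39 for MCM2. At the low end POLA1 and PRIM1 averaged 1.203 and 1.199 cRPKM, with overlapping ranges, GINS3 averaged 0.682 and MCM10, which helps to activate the helicase, 0.344.

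The control regions of these genes are shown because many members moved together. RefSeq promoter windows (GRCh38.p14, 250 bases before to 50 after the start) were matched for 32 of the 38 listed genes. For each member the first window listed was searched and any other start of the gene was not, while the comparison shares count every window. An E2F word (TTTCCCGC, TTTGGCGC, TTTCGCGC or TTTGCCGC on either strand, overlapping matches counted as 1 site) was found in 17 of these 32 windows, 53.1%, against 3.31% of all 35116 windows and 4.68% of the windows of genes tested. The CCAAT word, on either strand, was in 17 of 32 windows, 53.1%, against 34.6% of all windows. These are matches of letters and not binding sites, and no match says only that these letters are absent from the window. The bases before the start are printed 5′ to 3′ on the gene's strand with E2F and CCAAT words in capitals, for MCM6 (chr2:135876444-135876693, minus strand), MCM3 (chr6:52284743-52284992, minus), GINS2 (chr16:85688955-85689204, minus) and PCNA (chr20:5126623-5126872, minus), which fell with 4OHT, for TK1 (chr17:78187205-78187454, minus), which fell the most of all members and held neither word, and for POLA2 (chr11:65261712-65261961, plus), which rose.
MCM6: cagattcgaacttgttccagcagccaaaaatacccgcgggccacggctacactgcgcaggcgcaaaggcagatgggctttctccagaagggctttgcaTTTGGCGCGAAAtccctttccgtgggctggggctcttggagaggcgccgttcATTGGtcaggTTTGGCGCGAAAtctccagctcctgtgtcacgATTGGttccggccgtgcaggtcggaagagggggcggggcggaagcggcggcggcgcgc
MCM3: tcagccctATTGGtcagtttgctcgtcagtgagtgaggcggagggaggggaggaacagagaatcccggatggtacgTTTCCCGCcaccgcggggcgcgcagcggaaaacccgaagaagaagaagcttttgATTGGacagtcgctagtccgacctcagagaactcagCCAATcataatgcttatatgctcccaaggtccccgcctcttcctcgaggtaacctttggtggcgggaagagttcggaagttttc
GINS2: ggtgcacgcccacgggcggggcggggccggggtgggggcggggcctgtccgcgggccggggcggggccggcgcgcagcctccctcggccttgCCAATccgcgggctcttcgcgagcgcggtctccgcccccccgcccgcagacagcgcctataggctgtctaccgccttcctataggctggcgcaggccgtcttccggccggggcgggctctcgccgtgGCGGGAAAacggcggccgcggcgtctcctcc
PCNA: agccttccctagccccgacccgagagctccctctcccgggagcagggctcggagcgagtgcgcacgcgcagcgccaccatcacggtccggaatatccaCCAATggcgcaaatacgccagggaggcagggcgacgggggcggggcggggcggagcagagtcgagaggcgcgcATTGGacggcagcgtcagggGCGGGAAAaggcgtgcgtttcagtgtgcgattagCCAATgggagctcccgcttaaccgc
TK1: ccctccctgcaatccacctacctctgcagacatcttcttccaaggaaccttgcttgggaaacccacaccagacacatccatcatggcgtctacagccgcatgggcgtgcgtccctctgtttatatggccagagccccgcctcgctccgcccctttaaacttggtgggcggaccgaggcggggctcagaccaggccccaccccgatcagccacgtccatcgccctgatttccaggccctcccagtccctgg
POLA2: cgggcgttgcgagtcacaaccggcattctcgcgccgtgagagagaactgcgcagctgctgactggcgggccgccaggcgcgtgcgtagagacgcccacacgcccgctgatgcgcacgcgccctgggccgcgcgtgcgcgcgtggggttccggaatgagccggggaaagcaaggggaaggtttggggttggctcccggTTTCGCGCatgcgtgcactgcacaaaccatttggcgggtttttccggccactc
MCM6 carried 2 E2F sites, each a pair of overlapping words, beside 2 CCAAT words, and PCNA 1 E2F site beside 3 CCAAT words. Of the members that fell with 4OHT in siNT, 24 had a window and 14 of them, 58.3%, held an E2F word. Of those that rose, 6 had a window and 1 of them, that of POLA2, held one.

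The first comparison asked how the replication genes differed with 4OHT, which activates RAS, when splicing factors were left intact. With 4OHT in siNT cells 28 of 37 members were called lower and 7 higher, while 38.9% of all genes were called lower and 39.5% higher. The median log2 fold change of the members was -0.49, against a median near 0 for all genes tested. In 24 members every 4OHT library lay below every DMSO library, against 34% of all genes, and in 6 every one lay above, against 35.8%.

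**Figure D1:**
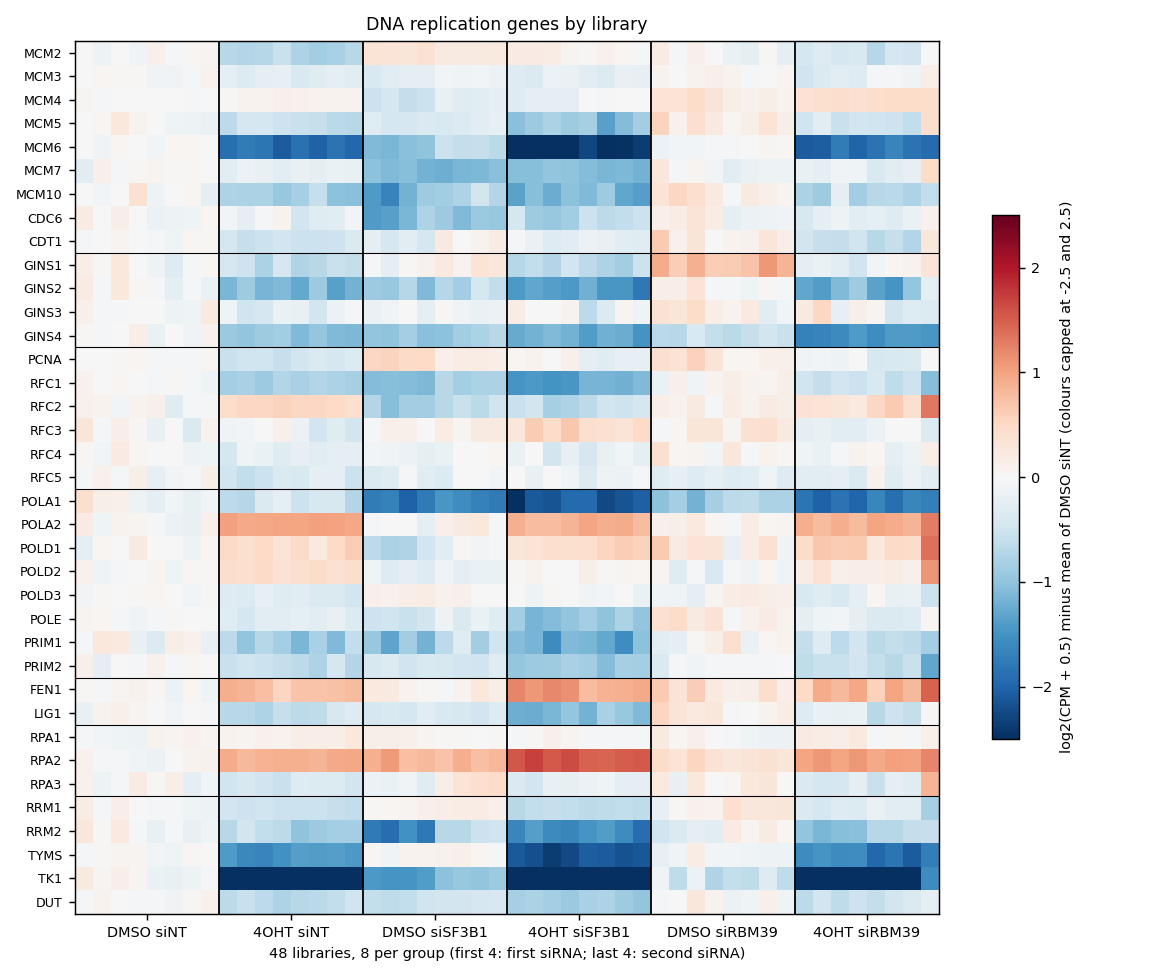
Level of the 37 DNA replication genes (rows, lines separate roles) in each of the 48 libraries (columns), as log2(CPM + 0.5) minus the mean of the 8 DMSO siNT libraries, with colours capped at -2.5 and 2.5. TK1 and MCM6 were dark blue in the 4OHT groups, POLA2, FEN1 and RPA2 red, and the last column of 4OHT siRBM39 differed from its neighbours.

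The largest fall was in TK1, cytosolic thymidine kinase, which salvages thymidine for DNA synthesis. TK1 was at 21.9 CPM in the lowest, 25.02 in the median and 29.1 in the highest DMSO library, and at 1.49, 1.95 and 2.90 with 4OHT. The groups were far apart, and the log2 fold change was -3.59 ± 0.22 (edgeR adjusted p = 7.6e-20), 12.1-fold lower. All 5 nucleotide supply genes fell. TYMS fell by 1.50 ± 0.07 on the log2 scale, from a median of 37.9 to 13.7 CPM, RRM2, the regulated subunit of ribonucleotide reductase, by 0.79, DUT, which removes dUTP, by 0.65, and RRM1, the large reductase subunit, by 0.55. TYMS shares its locus with the antisense gene ENOSF1, and the sources used here do not state whether counting used strand, so reads of the pair may not be separated.

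Among the 9 licensing and helicase genes 7 fell and none rose. MCM6, a subunit of the MCM ring, dropped the most, from a median of 24.8 CPM (23.1 to 25.7) to 6.32 (5.49 to 7.01), with no overlap, a log2 fold change of -1.98 ± 0.09 (edgeR adjusted p = 2.8e-25). The other ring subunits did not move in step with it: MCM2 changed by -0.76 ± 0.07, MCM5 by -0.60 ± 0.10, MCM3 by -0.29 ± 0.06 and MCM7 by -0.21 ± 0.07. MCM4 was at 29.9 CPM in the median DMSO library and 31.8 with 4OHT and was not called (0.09 ± 0.05), nor was CDC6 (-0.19 ± 0.10). All 4 GINS genes fell, most of all GINS2, from a median of 2.56 to 0.904 CPM (-1.50 ± 0.16), and GINS4, from 14.1 to 6.93 (-1.05 ± 0.06). MCM10 changed by -1.31 ± 0.19.

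The members that rose came from the clamp loader, polymerase and primase, lagging-strand and single-strand binding genes, and in each of these roles others fell. POLA2, the regulatory subunit of polymerase alpha, went from a median of 8.44 CPM (7.21 to 9.58) to 16.95 (16.6 to 17.5), a log2 fold change of 1.03 ± 0.07 (edgeR adjusted p = 2.0e-19), while its partners fell: the catalytic subunit POLA1 by 0.56 ± 0.10, the primase catalytic subunit PRIM1 by 1.31 ± 0.18 and PRIM2 by 0.62 ± 0.07. PRIM2 has a near-identical partial copy in the genome, so its counts are uncertain. RPA2, the middle subunit of RPA, went from a median of 14.97 CPM (13.7 to 16.4) to 28.4 (26.8 to 30.02), a change of 0.91 ± 0.05, and RPA1 by 0.13 ± 0.05, while RPA3 fell by 0.49 ± 0.14. FEN1, the flap nuclease, rose by 0.79 ± 0.09, and LIG1, the ligase that acts after it, fell by 0.62 ± 0.09. RFC2 rose by 0.52 ± 0.10, whereas RFC1, the large subunit of the clamp loader, fell by 0.82 ± 0.07 and RFC3, RFC4, RFC5 and PCNA by 0.21 to 0.47. POLD1, the catalytic subunit of polymerase delta, rose by 0.46 ± 0.12 and POLD2 by 0.42 ± 0.08. The calls of RFC3, GINS3 and RPA1 were the least firm, since each was lost in at least 6 of the alternative analyses.

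**Figure D2:**
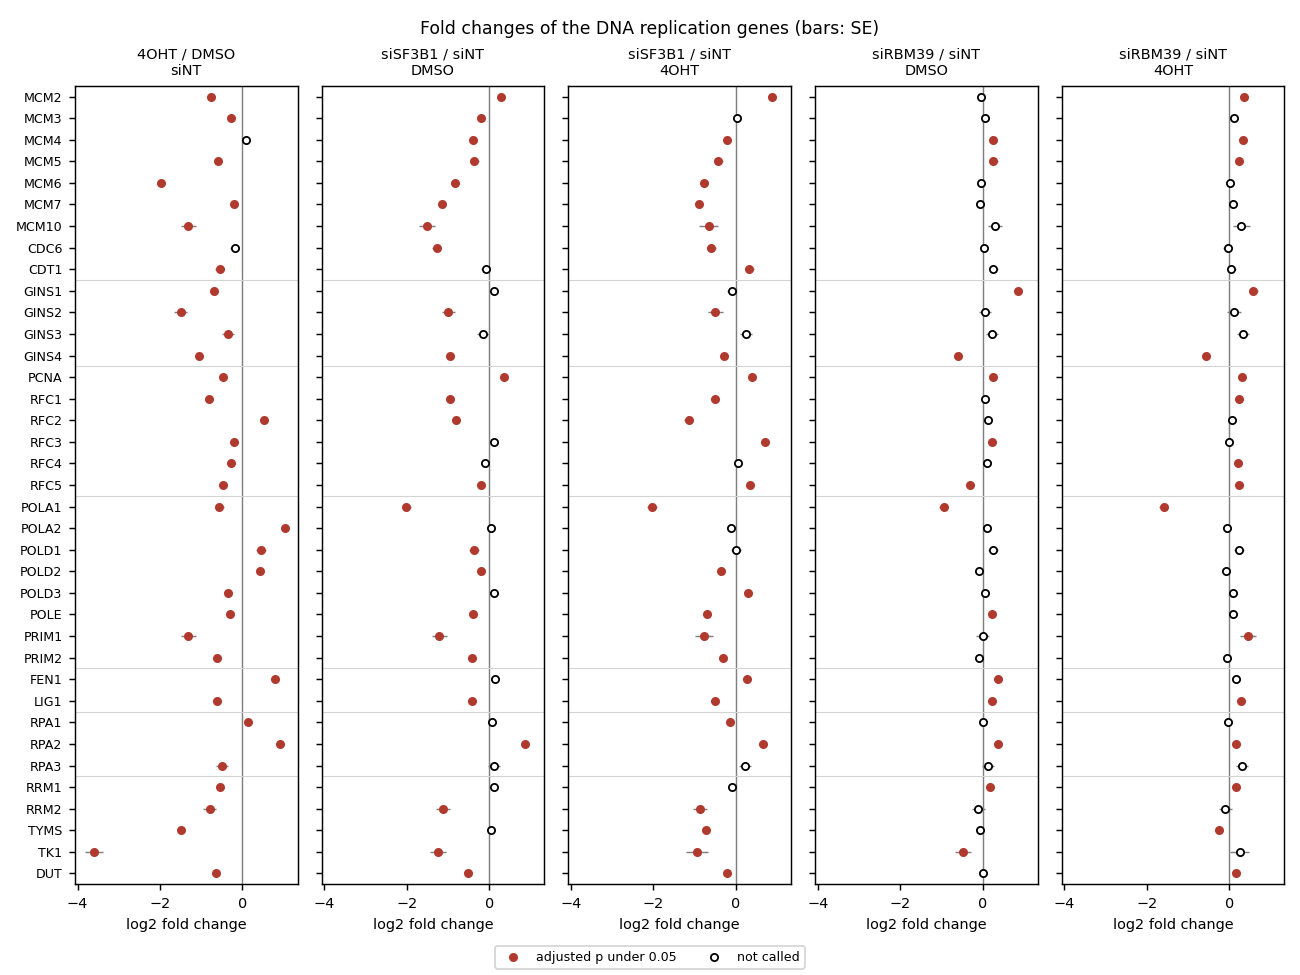
Log2 fold change of each of the 37 members (x axis, bars are SE from edgeR) in 5 comparisons, with filled points for members called at an adjusted p under 0.05. Most points lie left of 0 with 4OHT in siNT and after siSF3B1, and near or right of 0 after siRBM39, where POLA1 and GINS4 lie to the left.

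The same treatment contrast within each knockdown shows whether the 4OHT pattern was present there. In siSF3B1 cells 20 members were called lower with 4OHT and 8 higher (all genes: 38.4% lower, 37.7% higher), and in siRBM39 cells 26 lower and 8 higher (all genes: 37.8% lower, 38.4% higher), or 27 and 8 without 4OHT siRBM39-08 replicate 4, where MCM7 (-0.17) came in. TK1 was lower by 3.31 ± 0.24 in siSF3B1 cells and by 2.87 ± 0.22 in siRBM39 cells, or 3.37 ± 0.14 without that library, in which TK1 was at 8.01 CPM against 1.22 to 2.16 in the other 7 libraries. MCM6 was lower by 1.92 and 1.94, and POLA2 higher by 0.85 and 0.87. FEN1 was higher by 0.92 in siSF3B1 and 0.58 in siRBM39 cells, and RPA2 by 0.72 and 0.68. Without the library that stood apart the siRBM39 values were -1.94 for MCM6, 0.81 for POLA2, 0.47 for FEN1 and 0.65 for RPA2. In siSF3B1 cells TYMS fell by 2.28 ± 0.07 with 4OHT, to 8.09 CPM in the median library, 4.86-fold lower, and CDC6 rose by 0.48 ± 0.11. RRM2 fell by 0.54 ± 0.16 in siSF3B1 cells, a value that turned to 0.20 when siSF3B1-13 was taken alone.

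**Figure D3:**
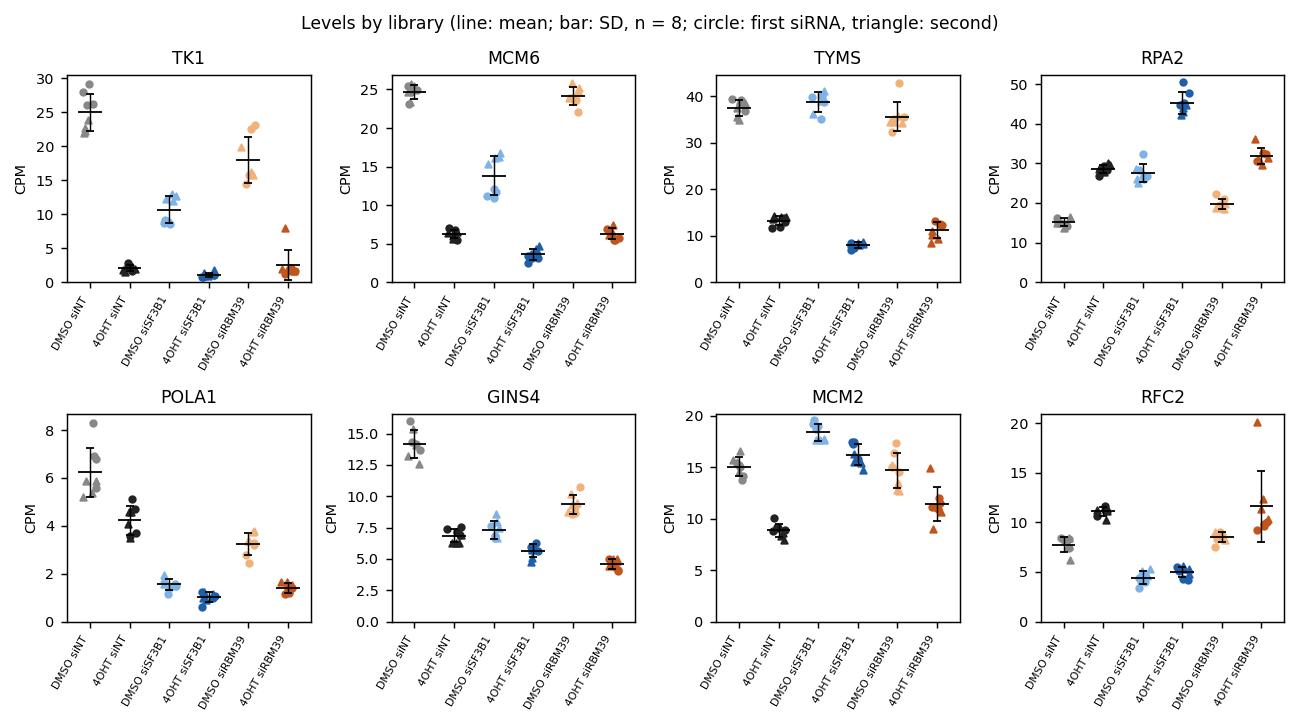
CPM of 8 members in each library (points, circles for the first and triangles for the second siRNA of a group), with the mean and SD of 8 libraries per group. TK1, MCM6 and TYMS were low in the 4OHT groups, RPA2 was highest in 4OHT siSF3B1, and POLA1 was low after both knockdowns.

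Loss of SF3B1 lowered a large part of the replication genes in DMSO cells as well. After siSF3B1 in DMSO 22 members were called lower and 3 higher, against 37.5% and 34.8% of all genes, and in 4OHT 21 were lower and 8 higher, against 38.3% and 36.8%. The medians were -0.36 and -0.22. In DMSO the median was -0.41 with siSF3B1-13 alone and -0.17 with siSF3B1-16 alone, and in 4OHT it was -0.19 and -0.23. With siSF3B1-16 alone the DMSO calls of POLD1, POLD2, RFC5 and MCM3 were lost. In 17 members every DMSO siSF3B1 library lay below every DMSO siNT library (27.8% of all genes) and in 3 above (24.8%). In 4OHT cells the counts were 13 below (31.7%) and 6 above (31.3%). Over the same comparison all 10 proliferation markers were lower in DMSO, and 6 of 10 in 4OHT.

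POLA1, the catalytic subunit of polymerase alpha, had the largest fall in both treatments. POLA1 was at 5.23, 5.88 and 8.30 CPM in the lowest, median and highest DMSO siNT library and at 1.15, 1.53 and 1.93 after siSF3B1, a change of -2.01 ± 0.11 (edgeR adjusted p = 6.8e-21) or 4.03-fold lower. In 4OHT cells it went from 3.49, 4.33 and 5.13 to 0.622, 1.03 and 1.24 CPM, a change of -2.05 ± 0.12. In neither treatment did the groups overlap, and both siRNAs gave low values. MCM7 fell from a median of 43.8 to 19.5 CPM in DMSO (-1.13 ± 0.07) and from 37.7 to 20.1 in 4OHT (-0.89 ± 0.07). RFC2 fell by 0.81 ± 0.10 and 1.15 ± 0.10, RFC1 by 0.95 ± 0.07 and 0.51 ± 0.07, and PRIM1 by 1.21 ± 0.18 and 0.77 ± 0.22. MCM10 and CDC6 fell by 1.50 and 1.27 in DMSO and by 0.66 and 0.60 in 4OHT. GINS2 changed by -0.99 and -0.50, LIG1 by -0.41 and -0.52, and TK1 by -1.23 ± 0.19 and -0.94 ± 0.26.

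A few members went the other way. RPA2 rose by 0.86 ± 0.05 in DMSO, from a median of 14.97 to 27.1 CPM, and by 0.66 ± 0.05 in 4OHT, to 44.8 CPM (42.1 to 50.6), its highest level of the 6 groups. PCNA rose by 0.35 ± 0.08 and 0.39 ± 0.08, and MCM2 by 0.29 ± 0.07 and 0.87 ± 0.07. These 3 were the genes called higher in DMSO. In 4OHT RFC3 (0.71 ± 0.10), RFC5 (0.34 ± 0.08), CDT1 (0.33 ± 0.11), POLD3 (0.30 ± 0.06) and FEN1 (0.28 ± 0.09) were higher too, while RPA1 was lower by 0.13 ± 0.05, a call lost in 5 alternatives. The 4OHT calls of FEN1 (0.12 with siSF3B1-16 alone) and GINS2 (-0.41 with siSF3B1-13 alone) did not hold with each siRNA.

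The interaction term asked whether siSF3B1 acted on these genes to a different extent with RAS active. It was called in 14 of 37 members, 10 with a more positive siSF3B1 effect in 4OHT (16.9% of all genes) and 4 with a more negative one (19.8%). The most positive were MCM10 (0.84 ± 0.31), CDC6 (0.67 ± 0.16), GINS4 (0.67 ± 0.09), RFC3 (0.59 ± 0.14) and MCM2 (0.58 ± 0.09). GINS4 fell by 0.95 ± 0.06 after siSF3B1 in DMSO and by 0.28 ± 0.07 in 4OHT, where it already stood at 6.93 CPM in siNT. The negative terms were TYMS (-0.78 ± 0.09), POLE, the catalytic subunit of polymerase epsilon (-0.32 ± 0.10), RPA1 (-0.21 ± 0.07) and RPA2 (-0.20 ± 0.07). TYMS was at 37.9 CPM in the median DMSO siNT library and 39.3 after siSF3B1, which was not called, but went from 13.7 to 8.09 in 4OHT (-0.73 ± 0.07). For POLA1 the interaction was -0.04 ± 0.16 and was not called. Of the 14 calls, 6 were made in every alternative analysis, those of MCM2, CDC6, GINS4, RFC1, RFC5 and TYMS, while those of MCM3, MCM10, CDT1, RPA1 and RPA2 were each lost in at least 6.

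**Figure D4:**
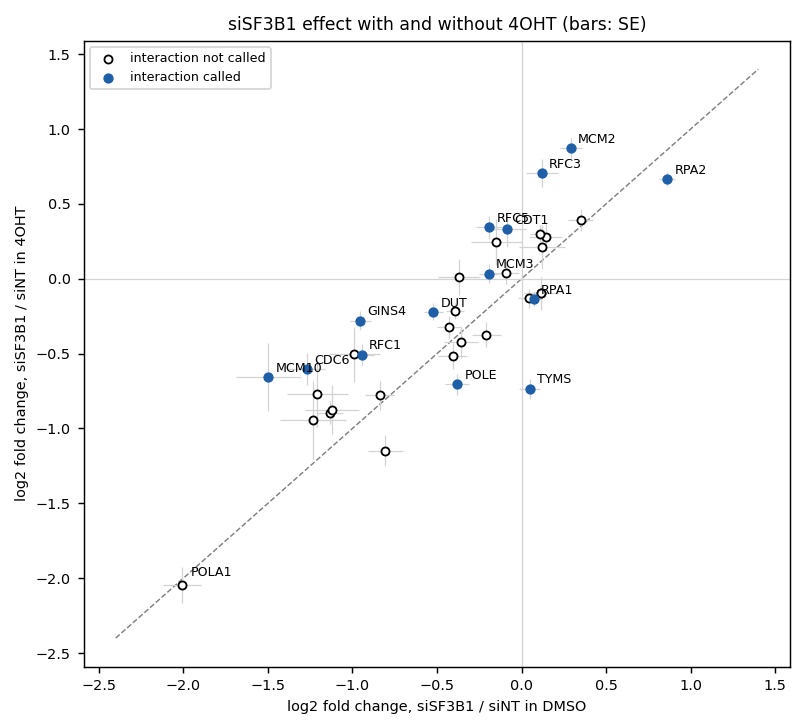
Log2 fold change after siSF3B1 in DMSO (x axis) and in 4OHT (y axis) for each of the 37 members, with SE bars and a dashed line of equal change. Filled points mark the 14 members with a called interaction. TYMS lies below the line (0.05 in DMSO, -0.73 in 4OHT) and MCM2 and GINS4 above it.

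The siRBM39 libraries were set against the same siNT libraries as siSF3B1, so both sets of values share their controls. After siRBM39 in DMSO 4 members were called lower and 10 higher, against 22.2% and 22.8% of all genes, and in 4OHT 3 lower and 13 higher, against 25.9% and 28.1%. The medians were 0.06 and 0.15. In DMSO 2 members lay wholly below siNT (11.5% of all genes) and 4 wholly above (7.85%), and in 4OHT 2 below (13.8%) and 1, MCM4, above (8.74%). The 2 below were POLA1 and GINS4 in both treatments.

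POLA1 was at 2.43, 3.32 and 3.77 CPM in the lowest, median and highest DMSO siRBM39 library, a change of -0.94 ± 0.10 (edgeR adjusted p = 2.0e-10) or 1.92-fold lower than siNT, and at 1.15, 1.37 and 1.66 in 4OHT, a change of -1.59 ± 0.11 (adjusted p = 1.6e-16) or 3.01-fold lower. Both siRNAs lay below all siNT libraries. Without 4OHT siRBM39-08 replicate 4 the 4OHT change was -1.61 ± 0.12. GINS4 went from a median of 14.1 to 9.22 CPM in DMSO (-0.60 ± 0.06) and from 6.93 to 4.66 in 4OHT (-0.58 ± 0.07, or -0.59 ± 0.07 without that library). TK1 (-0.48 ± 0.19) and RFC5 (-0.30 ± 0.08) were also lower in DMSO, and TYMS (-0.25 ± 0.07, the same without that library) in 4OHT, where siRBM39-06 alone gave -0.08 for TYMS and no call. The call of TK1 was lost in 6 of the alternative analyses.

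Of the rises, that of GINS1 was the largest, from a median of 4.12 to 7.44 CPM in DMSO (0.87 ± 0.10) and from 2.60 to 3.75 in 4OHT (0.58 ± 0.11). MCM4 rose by 0.26 ± 0.05 and 0.34 ± 0.05, PCNA by 0.26 ± 0.07 and 0.30 ± 0.08, RPA2 by 0.38 ± 0.05 and 0.15 ± 0.05, LIG1 by 0.22 ± 0.08 and 0.29 ± 0.09 and RRM1 by 0.17 ± 0.06 in each. FEN1 (0.37 ± 0.09) and POLE (0.23 ± 0.07) were higher in DMSO, and MCM2 (0.36 ± 0.07) and PRIM1 (0.45 ± 0.19) in 4OHT. Several of these rises did not hold with each siRNA. With siRBM39-08 alone in DMSO the values were 0.13 for MCM4, 0.09 for PCNA, 0.07 for LIG1, 0.24 for FEN1 and 0.09 for POLE, with none of the 5 called, and with siRBM39-06 alone RRM1 was 0.0048 and not called. In 4OHT LIG1 (0.21) and PRIM1 (0.32) were not called with siRBM39-08 alone. Nor were MCM5, RFC5 and DUT, called higher in 4OHT with both siRNAs pooled, with siRBM39-06 alone. The calls of LIG1 and RRM1 in DMSO and of PRIM1 in 4OHT were each lost in at least 6 of the alternative analyses. Without 4OHT siRBM39-08 replicate 4 the 4OHT changes were 0.51 for GINS1, 0.34 for MCM4, 0.27 for PCNA, 0.13 for RPA2, 0.23 for LIG1, 0.23 for RRM1, 0.30 for MCM2 and 0.49 for PRIM1, all still called. The number called in 4OHT was again 16 without it, but MCM5 (0.08) and DUT (0.11) dropped out and GINS3 (0.38) and POLD2 (-0.23) came in. The interaction of siRBM39 with 4OHT was called in 2 members with a positive term, RFC5 (0.53 ± 0.11) and MCM2 (0.40 ± 0.09), against 6.18% of all genes, and in 2 with a negative one, POLA1 (-0.65 ± 0.15) and RPA2 (-0.23 ± 0.07), against 7.98%. None of the 4 was called in every alternative. Without that library 8 were called, and the terms were -0.67 ± 0.16 for POLA1, 0.54 for RFC5, 0.33 for MCM2 and -0.26 for RPA2.

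Splicing of the members was read from the share of transcripts that include an exon or retain an intron (PSI, in percent). Of their 1115 listed events 70 had enough coverage in every library, 28 exons, 35 introns and 7 alternative splice sites. A PSI range of at least 5 points over all libraries was found in 21 of these 70. With the balance filter for introns 17 were tested, 10 exons, 6 introns and 1 alternative splice site. They lay in DUT, PCNA, POLD2, RPA1, RPA2, RPA3 and RRM1. In DMSO siSF3B1 lowered the inclusion of 4 of the 10 exons, against 25.7% of all 7673 exons tested, and in 4OHT of 1, against 29%. The range filter, used for members and all genes alike, takes in the siSF3B1 libraries themselves. The 4 exons called, in DUT, PCNA and RPA2, stood at 100% in every siNT library and passed that filter only through siSF3B1 libraries. These shares are therefore not rates among all covered exons, and the member share was not tested against that of all exons. With limma, 0 events of members were called after siRBM39 or with 4OHT in any arm, and 0 to 2 of 17 had an unadjusted p under 0.05 in each of these comparisons. The share of all 13839 tested events that was called was 5.78% in DMSO and 6.31% in 4OHT for siRBM39, and for 4OHT 0.947% in siNT, 2.77% in siSF3B1 and 1.31% in siRBM39 cells, so that 0 of 17 lies near the share of all events. The exons are printed 5′ to 3′ in capitals with 30 intron bases on each side in lower case, so that the 3′ splice site, near which the SF3B1 complex binds, can be seen. They were matched to GENCODE models by the lengths of the exon and both introns, and positions are in GRCh37. The exons are those of DUT (chr15:48633712-48633782, plus strand), PCNA (chr20:5099256-5099323, minus), RPA2 (chr1:28233439-28233552, minus), TYMS (chr18:659641-659714, plus) and RFC2 (chr7:73651692-73651772, minus). For LIG1 the whole intron (chr19:48626274-48626430, minus) is shown with its first and last bases in capitals.
DUT exon: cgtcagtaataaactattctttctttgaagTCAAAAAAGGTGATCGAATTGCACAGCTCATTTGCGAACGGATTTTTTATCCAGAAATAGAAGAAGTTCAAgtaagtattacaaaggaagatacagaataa
PCNA exon: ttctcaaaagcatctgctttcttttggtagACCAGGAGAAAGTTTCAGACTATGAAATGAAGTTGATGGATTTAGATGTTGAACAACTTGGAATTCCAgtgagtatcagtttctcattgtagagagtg
RPA2 exon: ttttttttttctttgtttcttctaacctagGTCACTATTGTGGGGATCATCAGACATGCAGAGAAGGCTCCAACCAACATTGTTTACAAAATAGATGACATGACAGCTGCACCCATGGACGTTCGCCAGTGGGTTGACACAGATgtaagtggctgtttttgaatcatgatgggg
TYMS exon: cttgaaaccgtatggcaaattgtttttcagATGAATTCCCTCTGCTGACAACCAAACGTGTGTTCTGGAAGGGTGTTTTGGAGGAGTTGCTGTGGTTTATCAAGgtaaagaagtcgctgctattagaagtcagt
RFC2 exon: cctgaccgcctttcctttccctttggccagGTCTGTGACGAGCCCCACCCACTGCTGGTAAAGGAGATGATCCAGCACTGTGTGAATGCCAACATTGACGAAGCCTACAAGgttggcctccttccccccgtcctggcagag
LIG1 intron: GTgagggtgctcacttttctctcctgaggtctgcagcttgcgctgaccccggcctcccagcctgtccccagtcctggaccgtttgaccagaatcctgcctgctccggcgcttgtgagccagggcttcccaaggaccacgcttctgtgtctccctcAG
All 5 exons are coding, and each starts after AG and ends before GT. The exons of DUT (71 bases), PCNA (68) and TYMS (74) are not a multiple of 3 bases long, whereas those of RPA2 (114) and RFC2 (81) are.

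The DUT exon, the sixth of 7 in the transcript, was included in 100% of transcripts in each of the 16 siNT libraries. After siSF3B1 its PSI was 82.2% in the lowest, 87.0% in the median and 93.3% in the highest DMSO library, a difference of -11.7 points (limma adjusted p = 6.4e-14, n = 8 and 8), and 78.8% to 100% in 4OHT, a difference of -8.96 points (adjusted p = 6.0e-11), with 36 to 85 reads behind a value. The siSF3B1 and siNT libraries did not overlap in DMSO, and did so at 100% in 4OHT. Each adjusted p here, and for PCNA and RPA2 below, rests on a variance taken over all 48 libraries, not only those compared. The DUT exon did not vary in siNT or siRBM39 libraries, whereas its SD after siSF3B1 was 4.07 points in DMSO and 7.46 in 4OHT. The PCNA and RPA2 exons likewise stood at 100% in every siNT library. These p-values therefore do not measure the spread of the siSF3B1 libraries. A pair of neighbouring PCNA exons of 98 and 68 bases, which share junction reads, fell by 6.85 and 7.57 points in DMSO, where the 68-base exon ran from 78.6% to 100%. One siRNA carried these calls: siSF3B1-13 gave means of 88.9% and 87.8%, and siSF3B1-16 means of 97.4% and 97.0%, which alone lay within the minimum difference of 5 points from siNT and were not called. In 4OHT the differences of -3.61 and -4.40 points had adjusted p-values of 0.00066 and 1.0e-05 but were under that minimum. The 114-base exon of RPA2 fell by 5.54 points in DMSO, to between 87.0% and 100%, by 4.03 and 4.15 points, under the minimum, without replicate 1 or replicate 4, and differed by -4.49 points in 4OHT (adjusted p = 9.6e-06), again under the minimum. None of the 6 introns passed it, while 10.8% of all introns tested were called higher after siSF3B1 in DMSO and 14.7% in 4OHT. After siSF3B1 the differences furthest from 0 were in a 369-base POLD2 intron (3.84 points in DMSO and 2.61 in 4OHT), an RPA3 intron of 1097 bases (-1.77 in DMSO), an RPA1 intron of 1678 bases (2.14 in 4OHT) and a POLD2 intron of 3769 bases (2.36 in 4OHT), and after siRBM39 in a 91-base PCNA intron (1.91 in DMSO and 3.43 in 4OHT). PCNA and RPA2 mRNA rose after siSF3B1 while DUT mRNA fell.

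Only 7 members had an event tested for PSI by library, so reads were also summed over the 8 libraries of each group. This step was chosen after the data were seen and is given as a description with no test. Events with at least 50 summed reads in every group numbered 333 in 25 members, and 16 of them in 10 members differed from siNT by at least 10 points after a knockdown, which is 4.8%, against 10.4% of 139261 events of all genes under the same rule. Intervals are 95% Wilson intervals and cover counting error only. The balance filter for introns, applied to PSI by library, was not applied to the summed reads. Of 10 member introns with enough coverage and range, 6 had passed that filter. The 81-base exon of RFC2 was included in 100% of 185 reads in DMSO siNT (98.0% to 100%) and in 77.3% of 102 reads after siSF3B1 (68.4% to 84.5%), and in 4OHT in 98.4% and 69.8% (60.7% to 76.9%). The 74-base TYMS exon went from 98.9% (527 reads) to 79.6% (481 reads, 75.8% to 83.0%) in DMSO and from 100% to 82.8% in 4OHT. In POLD1 a 569-base intron was retained in 9.99% of reads in DMSO siNT and 41.8% after siSF3B1 (31.1% to 53.8%), and in 4OHT in 6.95% and 73.9% (65.3% to 80.5%). The 157-base intron of LIG1 went from 0 of 83 reads, which allows a share of up to 3.61%, to 29.7% in DMSO, and from 5.24% to 56.9% in 4OHT. A 117-base POLD2 intron went from 0.707% to 22.4% and from 0.624% to 17.9%.

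An RFC1 exon of 110 bases was included in 65.9% of 73 reads in 4OHT siSF3B1 (54.3% to 75.6%), against 95.9% with siNT and 90.1% with siRBM39 in 4OHT, and 95.3% with siNT and 95.6% with siSF3B1 in DMSO. In 4OHT siSF3B1 exons of MCM4 (89 and 121 bases) and PRIM2 (68 bases) differed from siNT by -14.3, -13.4 and -14.5 points, and a 192-base intron of MCM7 by 12.3 points. The MCM4 exons had similar numbers of skipping reads there, as did the RFC1 exons of 110 and 397 bases. Each pair may share reads, though each exon counts as 1 of the 16 events. After siRBM39 the POLD1 intron had 26.7% in 4OHT (20.3% to 34.1%), and no other of the 16 events differed from siNT by 10 points. POLA1, which fell after both knockdowns, had no event with 50 reads in every group. RFC2, LIG1 and MCM7 mRNA fell after siSF3B1 in both treatments. TYMS mRNA fell in 4OHT only and was not called in DMSO, where its exon also changed. POLD1 mRNA was called lower in DMSO, but not with siSF3B1-16 alone (-0.09). In 4OHT the siSF3B1 and siNT libraries overlapped for POLD1. A link between these events and mRNA levels was not tested.

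**Figure D5:**
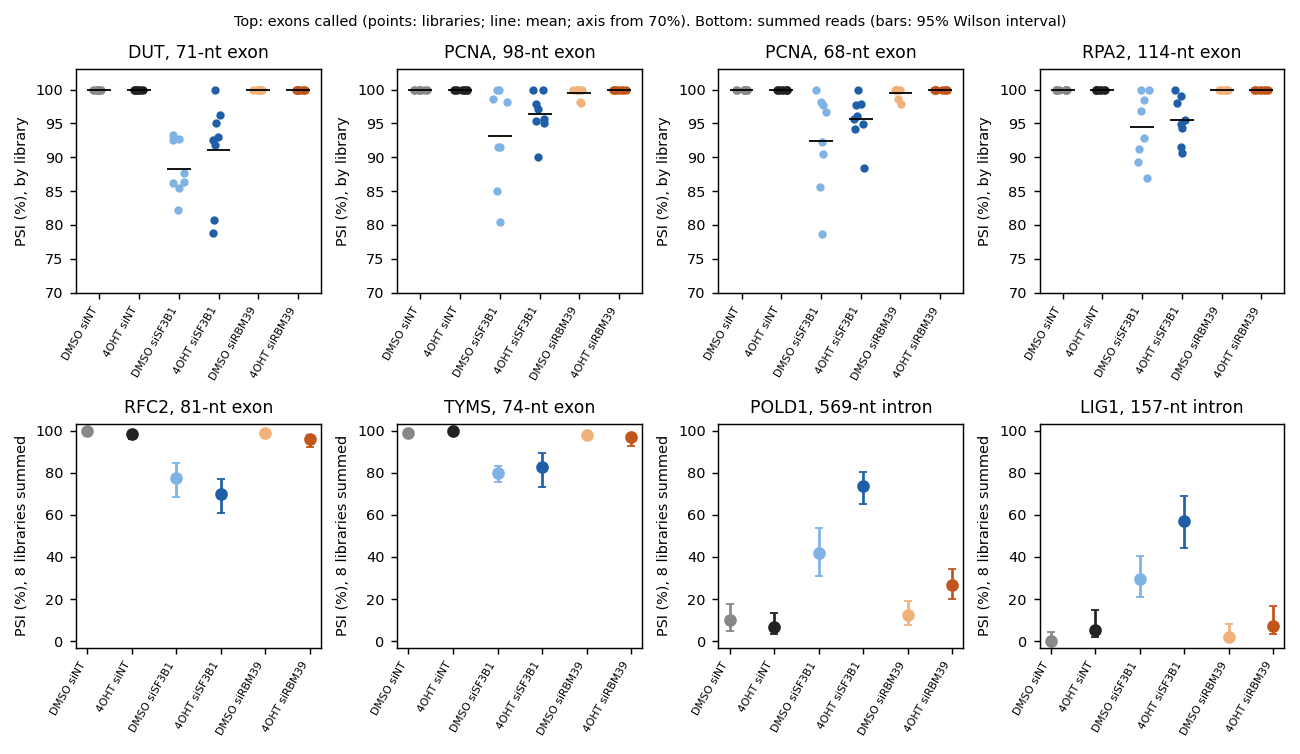
Top, PSI in percent of the 4 exons called after siSF3B1, by library (points) with the group mean (line), on an axis that starts at 70%. Bottom, PSI from reads summed over the 8 libraries of each group for an RFC2 and a TYMS exon and a POLD1 and a LIG1 intron, with 95% Wilson intervals. The siNT groups stay at or near 100% for the exons, and the siSF3B1 groups are lower for exons and higher for introns.

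Other replication genes were followed in a list of 53, of which 45 were tested. With 4OHT in siNT cells 17 were higher and 18 lower (37.8% and 40%, against 39.5% and 38.9% of all genes), with CCNE1, a cyclin of S phase entry, at 1.44 ± 0.12 and TOP2A, the mitotic topoisomerase, at -2.30 ± 0.17. Among E2F genes and their partners 7 of 12 tested were higher and 4 lower, with E2F7, a repressor, at 3.16 ± 0.21, E2F1, an activator, at 1.11 ± 0.15 and MYBL2, a late cell cycle activator, at -2.79 ± 0.29. After siSF3B1 30 of the 45 were lower and 6 higher in DMSO (all genes: 37.5% and 34.8%), and 28 lower and 7 higher in 4OHT (38.3% and 36.8%). CLSPN, a mediator of the replication checkpoint, changed by -2.36 ± 0.16 and -1.46 ± 0.19, and SAMHD1, which degrades deoxynucleotides, by -0.80 ± 0.05 and -1.03 ± 0.05. After siRBM39 the counts were 10 lower and 8 higher in DMSO (all genes: 22.2% and 22.8%) and 11 lower and 8 higher in 4OHT (25.9% and 28.1%). CDC45, the partner of MCM and GINS in the active helicase, changed by -0.40 ± 0.17 and -1.12 ± 0.17, and GMNN, the inhibitor of CDT1, by 0.45 ± 0.08 and 0.58 ± 0.09.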

How the data were processed

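RNA-seq was analysed from 48 libraries in 6 groups of 8. The authors deposited gene counts with cRPKM values, an RPKM corrected for length and mappability, and splicing inclusion levels (PSI, in percent) with the reads behind them as a score field. Both came from vast-tools, for which the study's methods and the labels name hg19. The normalised CPM file the authors deposited was not used. The labels' processing notes also name edgeR and limma. For 4 libraries titled siNT2 in 4OHT another label says siNT1, and the title was used.

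Genes with at least 1000 counts in all were tested with edgeR 4.0.16 (R 4.3.3) by quasi-likelihood F-tests after TMM scaling, with 6 group means. PSI was tested with limma 3.58.1 on the logit of 0.01 + 0.98 × PSI/100 for events with a score of VLOW or better in all libraries, a range of at least 5 points and, where an intron was tested, a balance p not under 0.05. A call needed an adjusted p under 0.05 and 5 points. Alternatives included DESeq2 1.42.0, limma-voom, other filters, single siRNAs, left-out replicates and a replicate block. Both tests were checked on simulated data. The simulated PSI started away from the ends of the scale and shifted by more than the members' exons did. That check therefore does not cover exons that are fully included in the control. Over 72 pairs of replicates, counts differed by at least 1.90 times the sampling variance, so no library was counted as a duplicate.

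In each comparison and role, the member with the largest rise and the one with the largest fall among those called were named, with members that moved against their role. The members and gene lists were chosen with earlier results of these data known. Event positions in the deposited file did not match GRCh37, although hg19 was named for them. Exons were therefore matched by length to GENCODE models, with sequence read by pysam 0.24.0 from GRCh37. Promoters came from RefSeq (GRCh38.p14).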

Additional observations from a re-analysis of the deposited data

Results flagged for a closer look

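In groups of 8 libraries, the lowest or highest library of a member was taken as standing apart where its gap to the nearest of the others passed Dixon's 95% critical share of the group's range, which chance does in about 1 of 20 groups. Of 222 member and group pairs 24 did so, and 15 of these 24 were in the library 4OHT siRBM39-08 replicate 4. In that library 12 members were higher than in the other 7 libraries of the group: POLD2 was at 127 CPM, MCM7 at 59.5, RPA2 at 36.2, POLD1 at 27.4, FEN1 at 23.6, POLA2 at 20.9, RFC2 at 20.1, MCM5 at 17.5, RPA3 at 8.52, TK1 at 8.01, CDT1 at 6.42 and GINS2 at 2.16 CPM. RRM1 at 29, RFC1 at 19.1 and PRIM2 at 6.42 CPM were lower. RBM39 was at 18.2 CPM there and at 16.6 to 18.1 in the other libraries of its siRNA.

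The other 9 were spread over 7 libraries. In DMSO siNT, MCM4 at 31.7 CPM was high and MCM7 at 35.8 low in siNT1 replicate 1, MCM10 at 2.05 was high in siNT1 replicate 4, and RFC2 at 6.16 was low in siNT2 replicate 2. In DMSO siRBM39-06, PRIM2 at 12.7 was low and CDT1 at 8.38 high in replicate 1, and TYMS at 42.8 was high in replicate 3. In 4OHT, MCM10 at 1.16 CPM was high in siRBM39-06 replicate 3 and RFC5 at 4.62 in siRBM39-08 replicate 1.

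The effect of a knockdown differed between DMSO and 4OHT by the edgeR interaction term, on the log2 scale, for 14 members after siSF3B1. The terms were 0.84 for MCM10, 0.67 for CDC6, 0.67 for GINS4, 0.59 for RFC3, 0.58 for MCM2, 0.53 for RFC5, 0.44 for RFC1, 0.42 for CDT1, 0.30 for DUT, 0.23 for MCM3, -0.20 for RPA2, -0.21 for RPA1, -0.32 for POLE and -0.78 for TYMS. After siRBM39 the terms of 4 members were called, 0.53 for RFC5, 0.40 for MCM2, -0.23 for RPA2 and -0.65 for POLA1.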

How the results depend on the processing

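The targeted mRNAs kept their direction and calls in every alternative, and of 199 calls of members 3 were lost under DESeq2 and 1 under limma-voom. With at least 10000 counts 23 members were called with 4OHT in siNT, since 25 were then tested. After siRBM39 in DMSO 6 were called with siNT1 as the only control, 9 with siRBM39-08 alone and 8 to 14 without a replicate number. For the interaction with siSF3B1 23 were called when only the groups compared were fitted, 9 and 8 with siNT1 or siNT2 alone, 8 with siSF3B1-16 alone and 9 to 14 without a replicate number. For that with siRBM39 the counts were 2 with at least 10000 counts, 1 and 2 with siNT1 or siNT2 alone, 9 with either siRNA alone, 2 to 8 without a replicate number and 8 without 4OHT siRBM39-08 replicate 4. RRM2 with 4OHT in siSF3B1 turned to 0.20 with siSF3B1-13 alone. The interaction of POLA1 with siSF3B1, which was not called, turned to 0.10 with siNT1 alone and 0.066 with siSF3B1-13 alone, and ran from -0.094 to 0.0037 without a replicate number. For events after siSF3B1 the calls in DMSO were 2 at a score of LOW, 8 with no minimum difference, 1 at 10 points, 2 with siSF3B1-16 alone and 3 to 4 without a replicate number. In 4OHT they were 0, 9 and 0 under the first 3 of these, 2 without the balance filter, 2 with siSF3B1-13 alone and 1 to 2 without a replicate number. With 4OHT in siSF3B1, 1 event was called with siSF3B1-13 alone and 0 to 1 without a replicate number. The cause of these shifts was not tested beyond the smaller number of genes or libraries.

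The replicate numbers showed no steady pairing of the libraries. Correlations by number were -0.79 to 0.52 between treatments in siRBM39, which holds the library that stood apart. In the other comparisons they ran from -0.13 to 0.19. With a replicate block 34, 25, 29, 14 and 14 members were called in the first 5 comparisons (4OHT in siNT, then siSF3B1 and siRBM39 in DMSO and 4OHT), 28 and 33 with 4OHT in siSF3B1 and siRBM39, 14 and 4 for the interactions, and 4 events and 1 event after siSF3B1. Of the 38 listed genes 13 had no event with 50 summed reads in every group.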
